A study of Mus musculus with 10 samples.

Results

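The account concerns 177 stretches of mouse chromatin that carried dimethylated histone H3 lysine 4 (H3K4me2) in group 2 innate lymphoid cells (ILC2s) and in thymus CD4+ cells but were not called in any library of peripheral T cells. They were found by merging the peaks of 8 H3K4me2 lists where they lay within 500 bp, which gave 30062 regions, and by keeping each region with a peak in both ILC2 lists and in the thymus list and in none of the other 5. These shared regions were chosen by the called H3K4me2 peaks themselves, so their presence in ILC2s and thymus and their absence from the other lists is a description and was not tested. They made up 0.589% of all merged regions and 1.25% of the 14197 regions called in both ILC2 lists and the thymus list.

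H3K4me2 was measured by chromatin immunoprecipitation and sequencing in lymphocytes sorted from Gata3-YFP/YFP mice that had airway inflammation, so every group carried the homozygous reporter. The ILC2s gave 2 libraries, from bronchoalveolar lavage and from the mediastinal lymph node, and the thymus gave 1 library of CD4+ lymphocytes. The lists in which the shared regions were absent came from T helper 2 (Th2) cells (2 libraries), cells labelled naive T (2 libraries) and spleen CD4+ lymphocytes (1 library), and the Th2 and naive T pairs were also split between lavage and lymph node. The 2 libraries of a cell type therefore differ in site as well as in any animal or technical difference, and the labels do not say whether they came from separate animals. The label of the thymus sample does not say whether CD8+ cells were left out, nor does the label naive T give a sorting gate.

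ILC2s are tissue lymphocytes without an antigen receptor that respond to epithelial alarm signals by making type 2 cytokines. They arise from lymphoid progenitors that share transcription factors with early thymocytes, among them GATA3 and TCF-1, and thymocytes go on to rearrange their antigen receptor genes and leave for the periphery. H3K4me2 lies over active and poised promoters and over enhancers, so a peak marks accessible regulatory DNA and does not measure transcription.

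A start site of each of Kit, Flt3 and Cbfa2t3 lay inside a shared region. Sequences at these start sites are printed because the genes encode growth factor receptors of progenitors and a corepressor of blood cell transcription. Another Cbfa2t3 start site lay in a region (chr8:122675822-122681099) that was not shared. That region had 468.6 tags in the thymus, 150.3 in lymph node naive T cells and 123.1 in the spleen, with no peak in ILC2s. Each window runs from 250 bases before to 50 bases after a RefSeq start site on GRCm38.p6, 5′ to 3′ on the gene's strand. Capitals mark motif letters found on either strand. The motif searched for GATA factors was GATAA, that for RUNX factors was TGTGGT, the E-box was read as CAGCTG or else as CAGGTG, and that for TCF factors was CTTTGA. The Kit window (chr5:75574737-75575036, plus strand) held none of them, the Flt3 window (chr5:147400440-147400739, minus strand) held 1 TCF match, and the Cbfa2t3 window (chr8:122699060-122699359, minus strand) held 1 GATA and 2 E-box matches.
Kit: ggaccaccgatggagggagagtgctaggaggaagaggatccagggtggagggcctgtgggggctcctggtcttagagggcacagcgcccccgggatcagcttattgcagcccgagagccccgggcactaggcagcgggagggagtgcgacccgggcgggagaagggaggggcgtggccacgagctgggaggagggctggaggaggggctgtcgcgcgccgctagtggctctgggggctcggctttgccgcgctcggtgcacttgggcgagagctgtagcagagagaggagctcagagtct
Flt3: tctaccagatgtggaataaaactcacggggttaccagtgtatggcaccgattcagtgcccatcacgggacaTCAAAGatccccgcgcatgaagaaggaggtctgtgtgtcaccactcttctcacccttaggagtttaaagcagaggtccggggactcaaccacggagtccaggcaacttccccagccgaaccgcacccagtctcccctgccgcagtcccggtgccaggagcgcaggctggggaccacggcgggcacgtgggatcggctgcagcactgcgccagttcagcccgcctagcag
Cbfa2t3: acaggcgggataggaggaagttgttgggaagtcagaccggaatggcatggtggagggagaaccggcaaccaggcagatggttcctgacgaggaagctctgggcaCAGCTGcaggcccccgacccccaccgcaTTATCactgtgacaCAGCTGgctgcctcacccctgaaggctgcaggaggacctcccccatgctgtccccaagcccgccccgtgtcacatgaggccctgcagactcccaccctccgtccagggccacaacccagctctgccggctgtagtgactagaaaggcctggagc

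In all, 58 RefSeq start-site windows of 49 genes lay inside shared regions. They had a median GC content of 60.5% and a median observed over expected CpG ratio of 0.52, against 0.8 in start-site windows of regions called in all 8 lists and 0.38 in all 32851 windows of the table. Of the 58 windows, 43.1% held an E-box match, 17.2% a GATA match, 10.3% a RUNX match and 10.3% a TCF match. The shares over all windows were 32.9%, 25.4%, 16.8% and 16.0% in the same order. In windows of ILC2-alone regions they were 33.8%, 29.5%, 13.2% and 14.6%, with a CpG ratio of 0.55, and in windows of thymus-alone regions 48.7%, 15.1%, 17.1% and 14.1%, with a CpG ratio of 0.43. The E-box share, the GATA share and the CpG ratio of the shared regions lay between those of these 2 sets, and the RUNX and TCF shares lay below both. These matches are letters in a window and were not tested as binding sites.

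The tissue labels were read against defining markers, as normalized tags (per 10000000 in the library) summed over the regions that overlap each gene. Kit had 1643.6 tags in ILC2s of the lavage and 1798.6 in ILC2s of the lymph node, against 193.3 in the thymus, and no overlapping peak in the other 5 lists. Arg1 (arginase 1) had 823.4 and 765.2 tags in ILC2s and no peak in the thymus. All 8 thymocyte markers had a peak in the thymus list, and Rag1 (2284.0 tags), Ptcra (331.5) and Cd8a (1810.7) had none in any other list, ILC2s included. Peaks lay at 4 of the 8 thymocyte markers in each ILC2 list, with 585.7 and 532.5 summed tags, against 21064.7 in the thymus. Rag2 had 277.8 and 219.8 tags in ILC2s and 131.6 in lymph node naive T cells. Dntt had 83.4 and 93.7 in ILC2s, 755.6 in lymph node naive T cells and 509.1 in the spleen. The peripheral lists had peaks at 1 (lavage naive T cells) to 5 (lymph node naive T cells and spleen) of these markers, with 983.0 to 3237.1 summed tags. All 8 T cell markers had a peak in every list, and their summed tags were 3655.6 and 3665.2 in ILC2s and 21725.4 in the thymus. Of the 9 ILC2 markers, 5 had a peak in the thymus list, 7 in each Th2 list, 6 and 5 in lavage and lymph node naive T cells and 5 in the spleen. Their summed tags were 22042.8 and 23158.3 in ILC2s, 3325.2 in the thymus and 2273.9 to 6230.6 in the peripheral lists. Lists for B cells, myeloid cells, eosinophils and mast cells, natural killer cells and epithelium had peaks at 2 to 5 genes each in both ILC2 lists and at 2 to 7 genes each in the thymus list. The part of such cells in the shared regions was not tested.

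Depth ranged from 11870820 tags in Th2 cells of the lymph node to 24945548 in ILC2s of the lavage, and the tag minimum came to between 39.9 and 40.4 normalized tags in every list. Tags in peaks, the authors' measure of immunoprecipitation efficiency, were 43.2% and 45.0% of those of ILC2s and 53.3% of those of the thymus, against 28.7% and 29.3% for Th2 cells, 37.3% and 53.7% for cells labelled naive T and 44.2% for the spleen. The fragment length that the peak finder estimated was 98 and 88 bp in ILC2s and 98 bp in the thymus, against 182 and 116 bp for Th2, 108 and 182 bp for naive T and 180 bp in the spleen. The 3 libraries that define the shared regions thus had the 3 shortest estimates, and its part in the result was not tested.

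Most shared regions were low, and absence from a list means only that no peak met the authors' criteria there. Their median height was 71.8 tags in lavage ILC2s (38.9 to 852.7), 67.5 in lymph node ILC2s (37.2 to 856.8) and 56.7 in the thymus (37.3 to 1015.9). Over all 14197 regions called in these 3 lists the medians were 179.2 and 184.0 in ILC2s and 259.5 in the thymus. The lowest of the 3 heights had a median of 47.3 tags and was under 60 tags in 131 of the 177 shared regions. In 23 shared regions all 3 heights were 80 tags or more, and in 15 they were 100 or more. The 3 members nearest to the limit had a lowest height of 37.2, 37.3 and 37.7 tags.

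Just outside the rule lay 153 regions with a peak in both ILC2 lists, the thymus list and exactly 1 peripheral list. That peak came from lymph node naive T cells in 101 regions, from lavage naive T cells in 24, from the spleen in 13 and from Th2 cells in 9 and 6. In 114 of the 153 regions the single peripheral peak was under 60 tags, and its median in the 101 regions of lymph node naive T cells was 48.3 tags. The library that excluded most regions had the highest share of tags in peaks, and without it 278 regions met the rule in place of 177. The order differed elsewhere, as the spleen (44.2% of tags in peaks) excluded 13 regions and lavage naive T cells (37.3%) excluded 24. The part of this share in the exclusions was not tested.

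**Figure D1:**
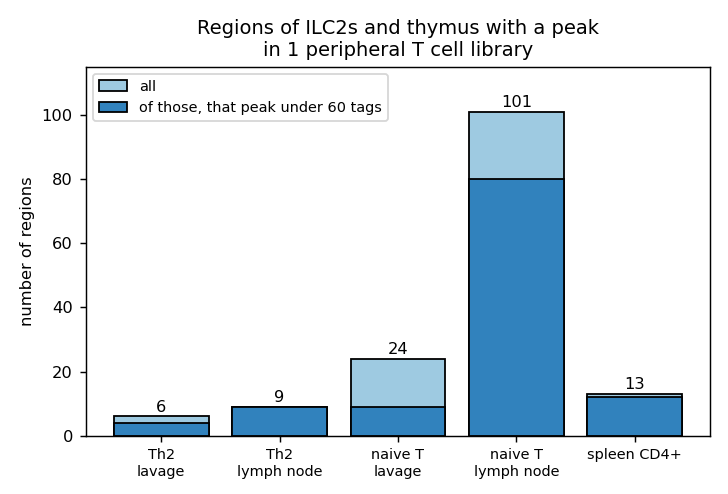
Number of regions (vertical axis) called in both ILC2 lists, the thymus list and exactly 1 list of peripheral T cells, by the library of that single peak; the dark part of each bar counts peaks under 60 tags. Lymph node naive T cells account for 101 of the 153 regions, and 80 of those peaks were under 60 tags.

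Most regions of the 2 cell types were called in peripheral T cells too, and among those that were not, few were common to both. Of 2696 regions called in both ILC2 lists and in no peripheral T cell list, the 177 shared with the thymus were 6.57%, and 2519 were called in ILC2s alone. Of the 2539 thymus regions with no peripheral peak, the same 177 were 6.97%, 2275 were in neither ILC2 list, and 87 were in 1 ILC2 list. In turn, 30 regions were called in both ILC2 lists and in the spleen and in no other list, which was 1.18% of those 30 together with the 2519. That share cannot be set against the 6.57%. For the spleen, the lists that had to be empty included other peripheral T cells, while no other thymus list had to be empty for the thymus.

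The shared regions had a median length of 2041 bp (1029 to 10551), against 1799 bp for regions of ILC2s alone, 1276 bp for regions of the thymus alone and 3943 bp for regions called in all 8 lists. A region spans the merged peaks of all its lists, so its length can grow with their number, which differed between these sets. A longer region can also hold a start site more easily. A RefSeq start site lay in 39 of the 173 shared regions outside chromosome 18 (22.5%), against 9.2% of ILC2-alone regions, 7.4% of thymus-alone regions and 34.5% of all merged regions. A gene interval overlapped 62.7% of them, against 66.4%, 54.8% and 72.2% in the same 3 sets. An ILC2-alone region lay within 50 kb of 28.8% of shared regions, 37.3% of ILC2-alone regions and 11.3% of thymus-alone regions. A thymus-alone region lay within 50 kb of 25.4% of shared regions, 42.0% of thymus-alone regions and 10.2% of ILC2-alone regions. The median distance to the nearest region called in all 5 peripheral lists was 42.7 kb, against 41.4 kb for ILC2-alone and 41.9 kb for thymus-alone regions. A region called in all 8 lists had the same nearest gene in 54.5% of the shared regions that had a gene within 100 kb. That share was 59.1% for ILC2-alone regions, 59.2% for thymus-alone regions and 74.6% for all merged regions. None of these shares was tested.

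The 12 tallest shared regions, by the geometric mean of tags summed over the region in the 3 libraries, were led by Kit, the receptor of stem cell factor. The Kit region (chr5:75574093-75584644) spanned the start site, ran into the gene and, at 10551 bp, was also the longest. It had 852.7 and 856.8 tags in ILC2s, against 193.3 in the thymus. Both ILC2 libraries lay far above the thymus and within 0.01 of each other on the log2 scale. A region inside Adam12, which encodes a membrane metalloprotease (chr7:134223446-134233358), had 637.8 and 655.3 tags in ILC2s, against 292.6 in the thymus. A region over 2700049A03Rik (chr12:71227647-71234996) had 571.2 and 583.0 tags in ILC2s, against 110.8 in the thymus. In both, the ILC2 libraries stood together above the thymus.

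At other tall regions the cell types were closer. The region at Trgc1, a constant gene of the T cell receptor gamma chain (chr13:19209627-19216349), had 349.6 and 310.1 tags in ILC2s, against 280.0 in the thymus. The region in Umad1 (chr6:8357649-8365753) had 303.9 and 325.4 tags in ILC2s, against 293.1 in the thymus. In each the thymus was lowest and the 3 heights lay close together. The Umad1 region was called higher in ILC2s in the test described next (log2 difference 0.60 ± 0.13, limma adjusted p 0.0379) and was not called without centring (0.10, adjusted p 0.563). Cbfa2t3, which encodes the corepressor ETO2, differed in the other direction, with 106.6 and 263.2 tags in ILC2s, against 1015.9 in the thymus (chr8:122694539-122704640). Its lavage and lymph node ILC2 libraries were 2.47-fold apart, so the ILC2 level there was uncertain. The rest of the 12 were a region next to Trdc, regions in Inpp5d (the phosphatase SHIP1), Tmem51, Ern1 and Gm36722, and one without a protein-coding gene within 100 kb (chr16:29844576-29850265), with 293.4 and 355.7 tags in ILC2s, against 72.0 in the thymus. In all, 10 of the 177 shared regions had no protein-coding gene within 100 kb, against 194 of 2519 ILC2-alone, 219 of 2275 thymus-alone and 1454 of all 30062 merged regions. Another tall one of the 10 (chr2:71655460-71658491) had 151.5 and 116.1 tags in ILC2s, against 41.5 in the thymus.

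**Figure D2:**
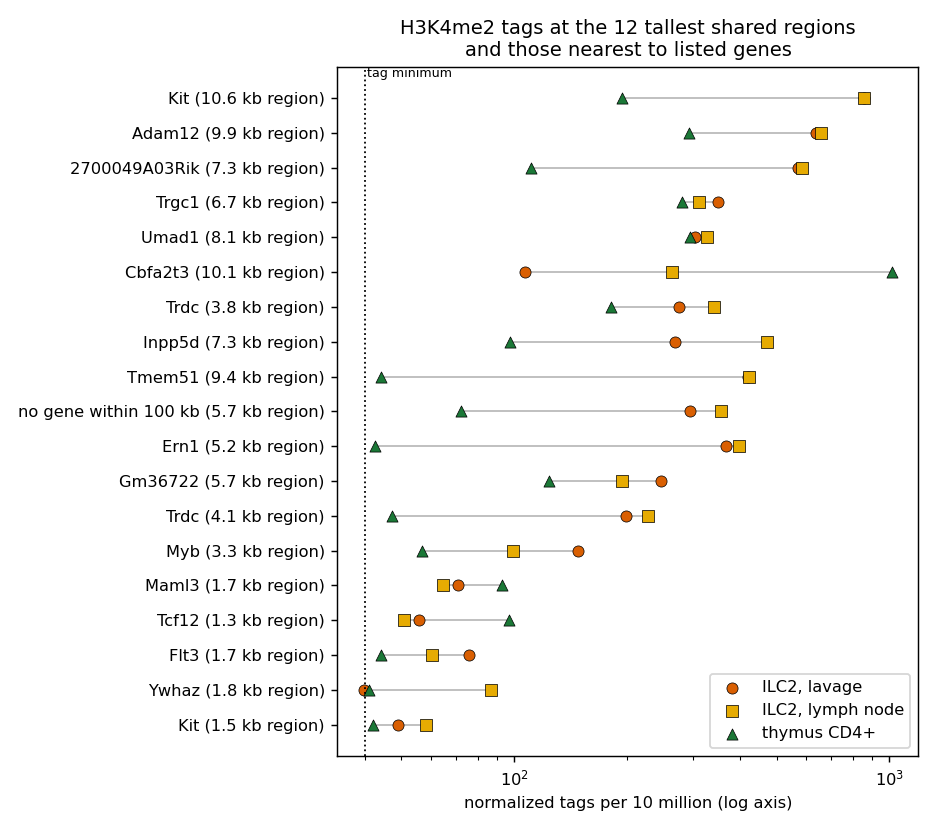
Normalized tags per 10000000 summed over each region (horizontal log axis) in lavage ILC2s (circles), lymph node ILC2s (squares) and thymus CD4+ cells (triangles) for the 12 tallest shared regions and those nearest to a listed gene, with 1 library per symbol and the tag minimum as a dotted line. Kit stands at 852.7 and 856.8 in ILC2s and 193.3 in the thymus, and Cbfa2t3 at 106.6 and 263.2 in ILC2s and 1015.9 in the thymus.

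Heights in ILC2s and thymus were compared with limma on log2 tags, after each library was centred on its median over the 11038 regions called in all 8 lists, which took 0.47 from the thymus on the log2 scale and added 0.065 to lavage ILC2s. The rule did not use this difference, but it chose regions by peaks of the same heights, and 131 of the 177 had a lowest height under 60 tags. Its part in the difference was not tested. Centring by itself raises ILC2s above the thymus where tags are alike. At Gatm, 42.9 and 43.4 tags in ILC2s, against 42.5 in the thymus, gave a log2 difference of 0.525. Of the 177 shared regions, 82 were higher in ILC2s than in the thymus and 10 were lower at an adjusted p under 0.05, and 85 were not called. Among all 14197 regions tested, 19.5% were called higher and 11% lower. The median difference, ILC2s minus thymus, was 0.69 on the log2 scale over the shared regions and -0.02 over all regions tested, and 136 of the 177 differences were positive. Without centring, 57 shared regions were higher and 33 lower. In a fit of all 8 libraries 32 were higher and 3 lower. With tags per kb of peak, 128 were higher and 7 lower. The thymus had 1 library, whose spread was taken from the ILC2 pair, so no variation between thymus samples entered the p-values or the standard errors. The calls and errors given for single regions below therefore describe these 3 libraries. Of 36 shared regions named in the text or by its rules, 29 were called, and 14 of these were not called in the fit of all 8 libraries: 2810021J22Rik, Rnf220, Inpp5d, Gm36722, Zfp831, Umad1, Trgc1, Flt3, the region nearest to Myb, the 3 at Ahi1, the second at Kit and the one 2507 bp from Trdc (adjusted p from 0.0502 to 0.184). With a lone ILC2 library, assumed to vary like the other libraries, no call was left: leaving out the lavage library gave 0 and 0, with 47 higher and 7 lower at an unadjusted p under 0.05, and leaving out the lymph node library gave 0 and 0, with 54 and 9.

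**Figure D3:**
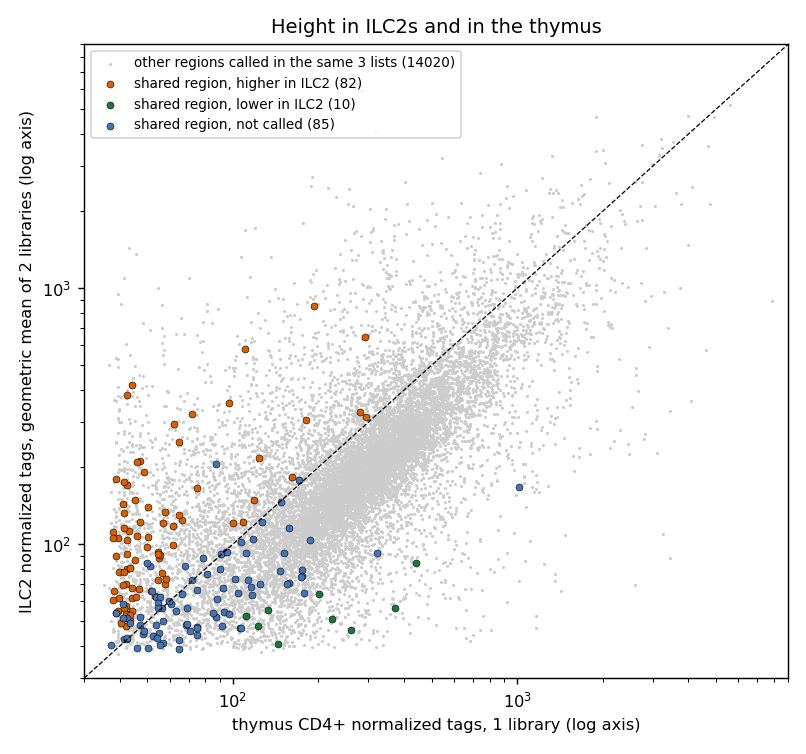
Geometric mean of normalized tags in the 2 ILC2 libraries (vertical log axis) against tags in the 1 thymus library (horizontal log axis) for the 14197 regions called in the 3 lists, before centring, with a dashed line of equality. Shared regions are coloured by the limma result, 82 higher in ILC2s, 10 lower and 85 not called, and crowd into the low corner beside 14020 other regions in grey.

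The regions with the largest excess in ILC2s lay near genes of several kinds. Tmem51 (chr4:142071099-142080515) had 419.7 and 420.9 tags in ILC2s, against 44.1 in the thymus, a log2 difference of 3.76 ± 0.13 (SE; limma adjusted p 0.00314). Ern1, which encodes the endoplasmic reticulum stress sensor IRE1 alpha (chr11:106461279-106466460), had 367.6 and 397.7 tags in ILC2s, against 42.5 in the thymus, a log2 difference of 3.67 ± 0.13 (limma adjusted p 0.00314). In these regions the thymus height was close to the tag minimum, and the thymus peaks were short: at Tmem51 the peaks covered 8260 and 7897 bp in ILC2s, against 1000 bp in the thymus. Per kb of peak the log2 differences were smaller, 0.85 at Tmem51, 1.47 at Ern1 and 0.78 at Kit, and all 3 stayed past the threshold. The region of 2700049A03Rik followed with a log2 difference of 2.88 ± 0.13 (limma adjusted p 0.00314).

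Cd93 and Thbd are neighbours on chromosome 2 that encode a C-type lectin-like membrane protein and thrombomodulin. The 2 regions found at this pair of genes were both shared regions. The Cd93 region (chr2:148439671-148444381) had 269.8 and 321.1 tags in ILC2s, against 62.0 in the thymus, a log2 difference of 2.75 ± 0.15 (limma adjusted p 0.00324). The Thbd region (chr2:148406371-148409675) had 180.8 and 179.1 tags in ILC2s, against 38.9 in the thymus, a log2 difference of 2.71 ± 0.14 (limma adjusted p 0.00314). Neither gene had a region in Th2, naive T or spleen cells within the window examined.

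Of the 10 regions lower in ILC2s, those with the largest differences included Gfra2, a co-receptor for neurturin, and Rnf220, a ubiquitin ligase. The region near 2810021J22Rik (chr11:58883068-58886396) had 44.1 and 71.4 tags in ILC2s, against 370.9 in the thymus, a log2 difference of -2.22 ± 0.30 (limma adjusted p 0.0131). The Gfra2 region (chr14:70992390-70995458), which lay 12550 bp from the gene, had 41.7 and 51.2 tags in ILC2s, against 261.1 in the thymus, a log2 difference of -2.00 ± 0.17 (limma adjusted p 0.00475). In both, the thymus stood above the 2 ILC2 libraries without overlap. A region of chromosome 12 with no protein-coding gene within 100 kb (chr12:107779063-107785299) differed by -1.87 ± 0.24 (limma adjusted p 0.0112), and by -0.01 per kb of peak (adjusted p 0.966). Rnf220 (chr4:117483313-117485863), with 58.9 and 44.2 tags in ILC2s and 223.8 in the thymus, differed by -1.63 ± 0.25 (limma adjusted p 0.0162). Tmc5, a transmembrane channel-like gene (chr7:118594671-118598246), had 38.9 and 42.9 tags in ILC2s, against 143.9 in the thymus, a log2 difference of -1.31 ± 0.13 (limma adjusted p 0.00714). Its direction turned with tags per kb of peak, to 0.61 on the log2 scale. The difference at Cbfa2t3, -2.10 ± 0.55, was not called (limma adjusted p 0.059), and it was called without centring at -2.60 (adjusted p 0.0185).

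Of 269 genes in 15 lists for thymocytes, E proteins, progenitor factors, ILC2 identity, innate-like T cells, T cell receptor signalling, cell cycle, the Notch pathway, stem cells, other cell types and housekeeping, 7 were the nearest gene of a shared region. Of the 843 regions nearest to listed genes 9 were shared regions, or 1.07%, beside 0.589% of all regions. The stem and progenitor list had 3 of its 58 regions (5.17%), at Kit and Flt3, the innate-like T list had 2 of 37 (5.41%), both at Trdc, and the housekeeping list had a like share, 1 of 20 (5.0%), at Ywhaz. The list of ILC2 identity and effector genes had 2 of 130, both at Kit, while 36 of its regions were called in ILC2s alone. The thymocyte list had 1 of 107, at Myb, while 19 of its regions were called in the thymus alone. No region of the T cell receptor and signalling list (76 regions) or the cell cycle list (82 regions) was shared, nor any of the B cell, myeloid, eosinophil and mast cell, natural killer cell and epithelium lists. These are counts without a test.

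Flt3 encodes a receptor tyrosine kinase of lymphoid and dendritic progenitors. Its start-site region (chr5:147399939-147401603) had 75.8 and 60.4 tags in ILC2s, against 44.1 in the thymus, a log2 difference of 1.12 ± 0.22 (limma adjusted p 0.0285). A region inside Flt3, 60.9 kb from that start site, had 437.1 tags in the thymus and 265.7 in lymph node naive T cells and 210.2 in the spleen, with no peak in ILC2s. Regions 33.9 and 18.2 kb from the start site were called in ILC2s, the thymus, lymph node naive T cells and the spleen. The first had 92.2 and 80.2 tags in ILC2s, 224.3 in the thymus, 141.8 in lymph node naive T cells and 119.8 in the spleen. The second had 59.3 and 83.2, 181.2, 63.0 and 39.6 tags in the same order. The shared region was lower in the thymus than each of these. Tcf12 encodes the E protein HEB, which thymocytes need for their development, and its shared region (chr9:72169456-72170769) lay 57563 bp from the gene with 55.7 and 50.8 tags in ILC2s, against 96.7 in the thymus. That difference was not called (log2 difference -0.36 ± 0.16, limma adjusted p 0.162), but was called without centring at -0.86 (adjusted p 0.0124). Maml3, a coactivator of the Notch pathway, had a shared region (chr3:51788208-51789886) with 70.6 and 64.4 tags in ILC2s, against 92.5 in the thymus (log2 difference 0.05 ± 0.16, limma adjusted p 0.837). The region assigned to Ywhaz, a 14-3-3 protein in the housekeeping list (chr15:36864904-36866701), lay 61920 bp from the gene and had 39.7 and 86.7 tags in ILC2s, against 41.0 in the thymus (log2 difference 1.02 ± 0.48, limma adjusted p 0.185).

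The shared regions had 162 nearest genes, of which 158 had 1 and 4 had more: Ahi1 with 3, and Kit, Trdc and Arhgap26 with 2 each. Arhgap26 had both of its regions inside the gene on chromosome 18. The larger of them had 210.1 and 152.0 tags in ILC2s, against 171.2 in the thymus, and the other 77.4 and 78.8 tags in ILC2s, against 41.5 in the thymus. The second was called higher in ILC2s (log2 difference 1.42 ± 0.13, limma adjusted p 0.00605), and the first was not (0.56 ± 0.27, limma adjusted p 0.185).

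At Kit, 8 regions lay within the window examined, of which 2 were shared, 4 were called in ILC2s alone and 1 in the thymus alone, and none was called in all 8 lists. The remaining region, 4536 bp beyond the gene, had 116.7 and 94.6 tags in ILC2s and 41.4 in lymph node naive T cells. The nearest region called in all 5 peripheral lists was 505333 bp from the main Kit region. At 14.8 and 25.4 kb from the Kit start site, regions inside the gene had 361.2 and 485.8, and 386.0 and 414.4 tags in the ILC2 libraries, with no peak in the thymus. The second shared region (chr5:75666491-75668037), 9769 bp beyond the gene, had 48.9 and 58.3 tags in ILC2s, against 42.0 in the thymus. The difference at the main Kit region was 2.65 ± 0.13 (limma adjusted p 0.00314), and that at the second was 0.85 ± 0.15 (limma adjusted p 0.025), which was not called without centring (0.35, adjusted p 0.144). The region called in the thymus alone lay 155.7 kb from the start site, beyond the gene, and had 139.2 tags. Inside the gene the thymus had 1 region, at the start site, and ILC2s had 4.

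Ahi1 lies next to Myb, which encodes a transcription factor of blood progenitors and thymocytes. The stretch around both genes held 24 regions, of which 4 were shared, 4 were called in ILC2s alone, 7 in the thymus alone and 4 in all 8 lists. The shared regions lay 304.9, 169.0, 60.7 and 41.5 kb from the Myb start site, on the side of the gene body and Ahi1. The one nearest to Myb (chr10:21117836-21121136), 3794 bp from the gene, had 147.9 and 99.0 tags in ILC2s, against 56.7 in the thymus, a log2 difference of 1.60 ± 0.31 (limma adjusted p 0.0291). The other shared regions had 96.2 and 187.0, 112.6 and 133.2, and 127.9 and 114.3 tags in ILC2s, against 57.8, 108.7 and 99.8 in the thymus. At all 4, both ILC2 libraries were above the thymus. The log2 differences of these 3, at 304.9, 169.0 and 60.7 kb, were 1.72 ± 0.41, 0.68 ± 0.15 and 0.78 ± 0.16 (limma adjusted p 0.0473, 0.041 and 0.0351), and none of the 3 was called without centring (adjusted p 0.0596, 0.413 and 0.178). The tallest region called in the thymus alone there, 95.3 kb from the Myb start site inside Ahi1, had 533.7 tags. The region over the Myb start site itself was called in every list, with 569.2 and 676.7 tags in ILC2s, 1028.5 in the thymus, 290.5 and 319.3 for Th2, 434.2 and 554.5 for naive T and 458.2 in the spleen. The promoter of Myb was therefore marked in all 8 libraries while the 4 shared regions around it were not.

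**Figure D4:**
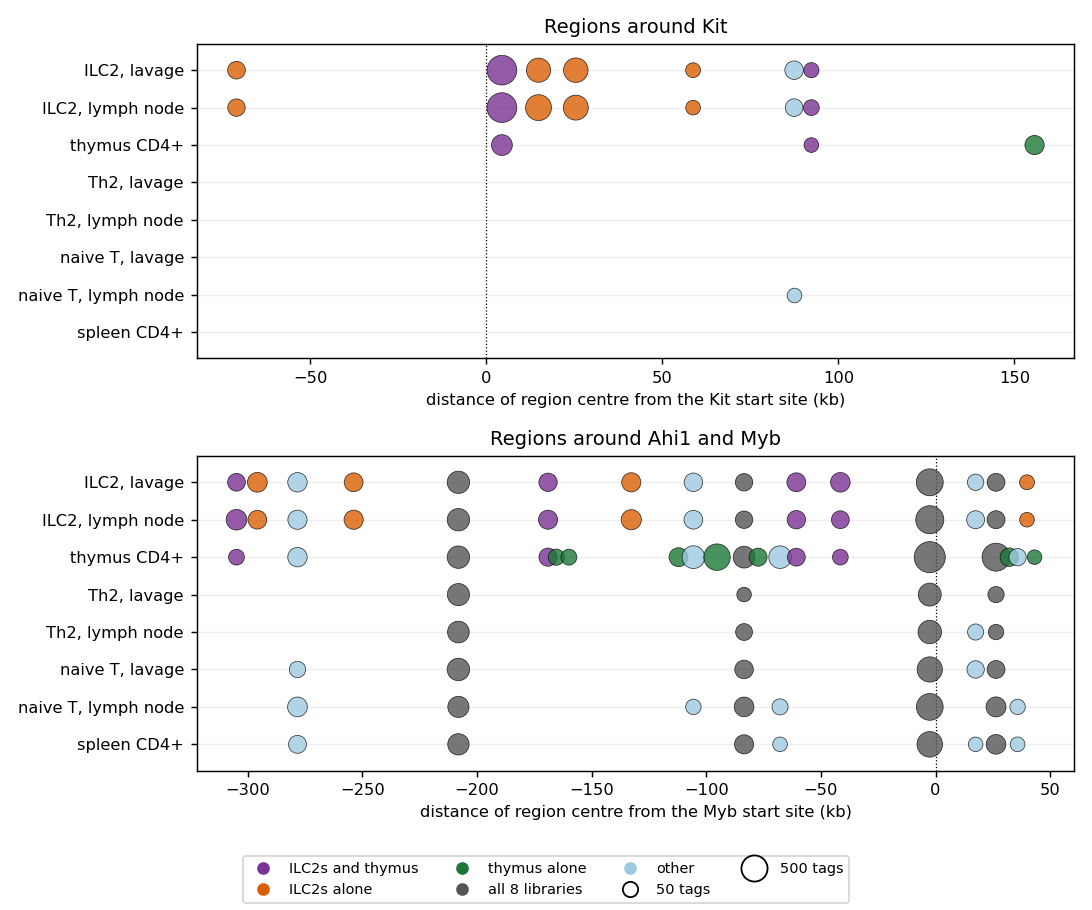
Regions around Kit and around Ahi1 and Myb, by distance of the region's centre from the Kit or Myb start site in kb (horizontal axis) and library (rows); the area of a point grows with the square root of normalized tags and its colour gives the pattern of lists with a peak. Purple regions, called in ILC2s and the thymus, number 2 at Kit and 4 at Ahi1 and Myb. Purple and orange stand for regions with no peak in Th2, naive T and spleen cells, so those rows hold neither colour by definition.

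Shared regions also lay at T cell receptor gamma and delta genes. These genes serve gamma delta T cells, and in cells that rearrange the alpha locus the delta genes, which lie within it, are cut out of the chromosome, so that in alpha beta T cells loss of the mark and loss of the DNA cannot be told apart here. Of 11 regions in the stretch before Trdc and up to Trac, 4 were shared. The shared region 2507 bp from Trdc (chr14:54136512-54140344) had 275.4 and 341.6 tags in ILC2s, against 180.7 in the thymus, a log2 difference of 1.27 ± 0.17 (limma adjusted p 0.0123). The one overlapping Trdc (chr14:54144490-54148604) had 198.0 and 226.9 tags in ILC2s, against 47.3 in the thymus, a log2 difference of 2.67 ± 0.14 (limma adjusted p 0.0032). The other shared regions lay 240.0 and 181.9 kb before Trdc, with 110.2 and 104.7, and 89.4 and 96.4 tags in ILC2s, against 46.2 and 111.4 in the thymus. Of these, the region 240.0 kb away was called higher in ILC2s (log2 difference 1.72 ± 0.14, limma adjusted p 0.00488), and the other was not (0.24 ± 0.13, limma adjusted p 0.239) and turned to -0.26 without centring. ILC2s also had a region of their own 66.7 kb before Trdc with 479.0 and 473.9 tags.

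Next to these, a single region of 85039 bp over Trac, the alpha constant gene, was called in all 8 lists. It had 928.5 and 860.6 tags in ILC2s, 7852.3 in the thymus, 5340.4 and 5281.9 for Th2, 6715.5 and 8514.0 for naive T and 6026.5 in the spleen. The ILC2 values were the lowest there, and were above the thymus in the 2 shared regions nearest to Trdc.

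At the gamma locus, 1 of 7 regions was shared. That region, over Trgc1, differed by 0.74 ± 0.17 between ILC2s and thymus (limma adjusted p 0.0415), which was not called without centring (0.23, adjusted p 0.245). The gamma constant genes resemble each other in sequence, and how the aligner placed tags among them was not tested. A larger region 17943 bp from Trgc1 (chr13:19181143-19196160) was called in all 8 lists, with 961.3 and 962.3 tags in ILC2s, 269.5 in the thymus, 78.5 and 62.3 for Th2, 94.9 and 102.8 for naive T and 96.5 in the spleen. Both ILC2 libraries and the thymus thus stood above all 5 peripheral libraries at this neighbouring region.

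**Figure D5:**
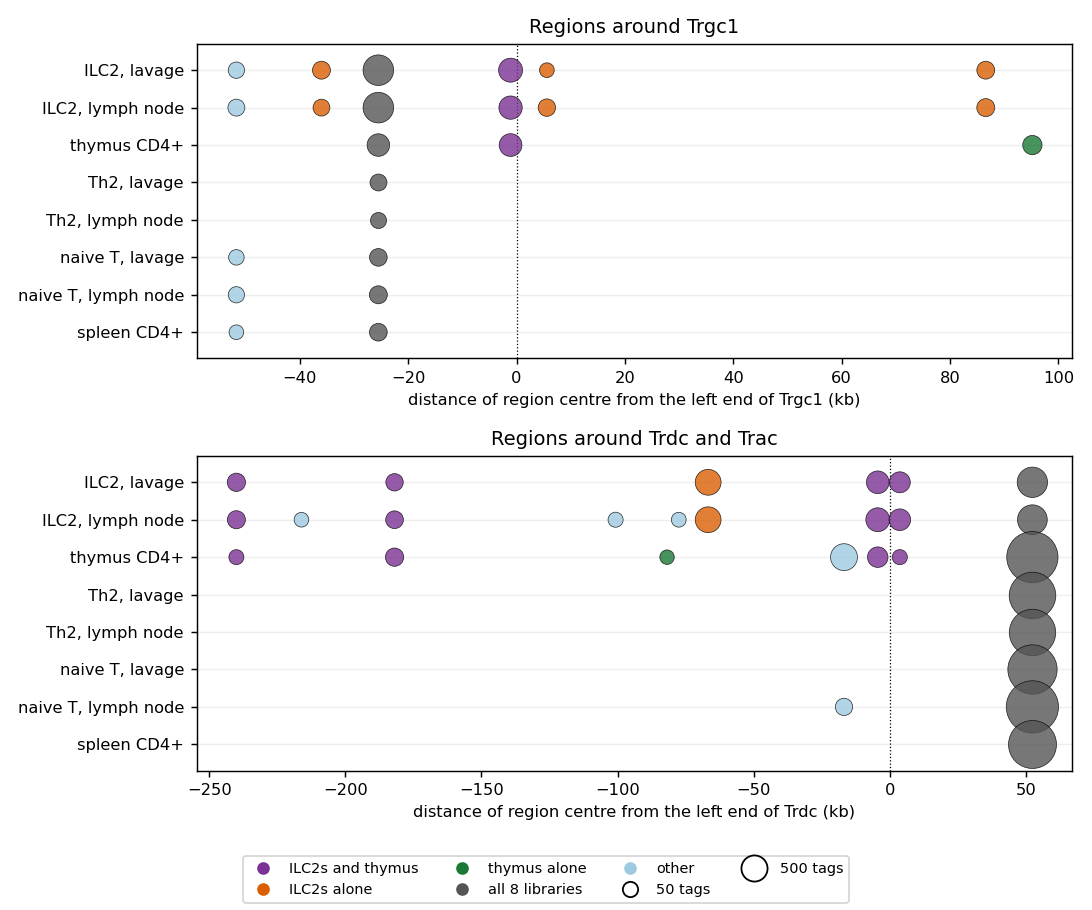
Regions around Trgc1 and around Trdc and Trac, by distance of the region's centre from the left end of Trgc1 or Trdc in kb (horizontal axis) and library (rows); the area of a point grows with the square root of normalized tags and its colour gives the pattern of lists with a peak. Beside the purple points of ILC2s and the thymus, the Trac region has 928.5 and 860.6 tags in ILC2s, 7852.3 in the thymus, and between 5281.9 and 8514.0 in Th2, naive T and spleen cells.

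Whether the genes next to shared regions also differed where every library had a peak was read from regions outside the rule. Of the 11038 regions called in all 8 lists, 144 had the same nearest gene as a shared region, at 88 genes. Between ILC2s and naive T cells (limma, 2 libraries each), 15 of the 144 were higher in ILC2s and 2 were lower, or 10.4% and 1.39%, against 2.63% and 1.81% of all such regions. Between ILC2s and Th2 cells, 7 were higher in ILC2s and 3 were lower, or 4.86% and 2.08%, against 2.58% and 1.58%. The median difference was 0.19 against naive T cells and 0.24 against Th2 cells, beside -0.02 and 0.00 over all regions. Both comparisons use the same ILC2 libraries. Without either ILC2 library no region of the 144 was called, with 26 to 29 higher against naive T cells and 21 to 24 against Th2 cells at an unadjusted p under 0.05. Without either Th2 library, none was called against Th2 cells, and 9 were higher against naive T cells. Without lavage naive T cells 36 were higher against naive T cells and 24 against Th2 cells, and without lymph node naive T cells 17 and 24. Without centring, 29 were higher than in Th2 cells and 1 was lower. With tags per kb of peak, 6 were higher against naive T cells and 1 against Th2 cells, none was lower, and none of the regions named next was called.

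The region near Trgc1 described above led both comparisons, with log2 differences of 3.48 ± 0.20 against naive T cells (limma adjusted p 0.00301) and 3.36 ± 0.20 against Th2 cells (limma adjusted p 0.00506). At Ern1, a region called everywhere (chr11:106475035-106489221) had 1332.9 and 1378.4 tags in ILC2s, 346.6 and 306.6 for Th2 and 254.9 and 195.4 for naive T. Its log2 difference was 2.80 ± 0.29 against naive T cells (limma adjusted p 0.00873) and 1.63 ± 0.29 against Th2 cells (limma adjusted p 0.0442). Dnmbp, which encodes an activator of the GTPase Cdc42, had a region (chr19:43914898-43927046) with 678.3 and 849.3 tags in ILC2s, 142.1 and 156.7 for Th2 and 135.0 and 270.5 for naive T. It differed by 2.18 ± 0.22 against naive T cells (limma adjusted p 0.00809) and by 1.92 ± 0.22 against Th2 cells (limma adjusted p 0.0152). Cysltr2, a receptor of cysteinyl leukotrienes, had a region (chr14:73085292-73089607) with 384.4 and 406.9 tags in ILC2s, 121.6 and 112.9 for Th2 and 150.9 and 157.6 for naive T. It was called against both, with log2 differences of 1.55 ± 0.18 and 1.33 ± 0.18 against naive T and Th2 cells (limma adjusted p 0.0125 and 0.0238).

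Zfp831, a zinc finger gene, went the other way. Its region called in all lists (chr2:174597512-174605086) had 97.8 and 126.6 tags in ILC2s, 117.7 in the thymus, 516.8 and 590.5 for Th2 and 703.8 and 648.0 for naive T. The log2 difference was -2.41 ± 0.24 against naive T cells (limma adjusted p 0.00809) and -2.74 ± 0.24 against Th2 cells (limma adjusted p 0.00964). The shared region at Zfp831 had 86.2 and 90.7 tags in ILC2s, against 55.2 in the thymus. Zfp831 thus had a shared region absent from peripheral T cells and another region that was higher in peripheral T cells. Utrn (utrophin) had a region lower in ILC2s, with log2 differences of -0.96 ± 0.18 against naive T cells (limma adjusted p 0.0456) and -1.18 ± 0.18 against Th2 cells (limma adjusted p 0.0288). Per kb of peak the Utrn differences turned to 0.19 and 0.07 (adjusted p 0.54 and 0.839). In a fit with the site as a replicate block they were not called either (adjusted p 0.0737 and 0.052). A region at Rcsd1 differed by 1.35 ± 0.18 on the log2 scale between ILC2s and naive T cells, with ILC2s above (limma adjusted p 0.018). Against Th2 cells, a second region at Dnmbp was higher in ILC2s by 2.42 ± 0.36 (limma adjusted p 0.0288) and one at Trps1, a GATA-type zinc finger gene, by 1.70 ± 0.27 (limma adjusted p 0.032), while one at Med13, a subunit of the Mediator kinase module, differed by -1.22 ± 0.23 (limma adjusted p 0.0489), which was not called with the site as a replicate block (adjusted p 0.0613) or without centring (-0.79, adjusted p 0.169).

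Over the shared regions the 2 ILC2 libraries did not differ in one direction, but they were farther apart than over regions called in all 8 lists. The log2 difference of lymph node ILC2s minus lavage ILC2s had a median of 0.01 and an SD of 0.448, and 91 of the 177 regions were higher in the lymph node. The SD was 0.229 over regions called in all 8 lists and 0.483 over ILC2-alone regions. In all, 7 shared regions differed by more than 2-fold between the sites, or 3.95%, against 0.43% and 5.28% in the same 2 sets. Cbfa2t3 was one of them, and Tmem176b was another, with 55.2 tags in lymph node ILC2s, against 151.9 in lavage ILC2s. With 1 library per site these differences have no replicate. Median heights in lavage and lymph node ILC2s were 71.8 and 67.5 tags in shared regions and 73.8 and 78.4 in ILC2-alone regions. Regions called in all 8 lists were taller, with medians of 7.696 and 7.76 on the log2 scale. The part of height in the spread between the sites was not tested.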

How the data were processed

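Bowtie, HOMER and mm10 are named in the submitters' processing notes, and their versions are not given in the sources used here. Per the file headers, peaks were called in each library separately with an initial size of 1000 bp, a minimum distance of 2500 bp, a false discovery rate of 0.001 and a 4-fold excess over immunoglobulin G (IgG), which came from the thymus for all lists but that of the spleen. The deposited signal of a peak is the authors' normalized tag count, scaled to 10000000 tags. The deposited lists also hold the peak finder's score, its fold (ratio) over IgG and its p-value, all made by the authors and not tested here.

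Peaks within 500 bp were merged and tags summed per region. Nearest genes were protein-coding or receptor constant gene intervals within 100 kb in a RefSeq table of GRCm38.p6, which has mm10 coordinates and gives no strand or exons, so a position within a gene was not resolved further. The planned sequence from region centres was limited to RefSeq start-site windows. Log2 tags were tested with limma 3.58.1 in R 4.3.3 (no trend, Benjamini-Hochberg over all regions tested, threshold 0.05, no pseudocount as every value is a called peak), and p-values measure only the spread between these libraries. The fit of ILC2s against the thymus was also run on simulated data that gave every library a spread taken from the ILC2 pair. Such data cannot check whether the lone thymus library varies like ILC2s. Named regions were the 12 tallest, the 5 largest differences in each direction among those called, genes with 2 or more shared regions, listed genes, the 5 longest, the 5 tallest without a gene, and the 5 of smallest p per direction at regions called in all lists. The members and lists were chosen with earlier results of these data known. Coordinates are mm10. Labels of the 2 IgG samples name the H3K4me2 antibody, so what the excess over IgG means is uncertain.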

Additional observations from a re-analysis of the deposited data

How the results depend on the processing

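The number of shared regions was 175, 184, 145 and 190 with a merging distance of 0 bp, with 1000 bp, with a minimum of 60 tags in all lists and with peaks covering 25% of the region. Of the 145, only 46 were among the 177. It was 23 with 80 tags or more in ILC2s and thymus, and 70 with equal numbers of peaks (14723 per list), of which 16 were among the 177. Without 1 library it ranged from 183 to 278, and such counts can only rise. Listed genes with a shared region numbered 5 within 10 kb and 8 with every gene within 50 kb.

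The counts of 82 higher and 10 lower in ILC2s than in the thymus became 32 and 3 with all 8 libraries in one fit, 57 and 33 without centring, 128 and 7 with tags per kb of peak, 78 and 10 with the highest peak, 45 and 8 of 81 regions averaging 80 tags or more, and 0 and 0 without either ILC2 library. Of 36 named shared regions, Tmc5 turned to 0.607 (adjusted p 0.00176) with tags per kb, where 3 others lost their call and 4 gained one. Of the 29 called, 14 lost their call with all 8 libraries in one fit, 6 without centring (2 others gained one), 2 with the highest peak and 29 without either ILC2 library.

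For the 144 neighbouring regions, the fit with a replicate block gave 16 higher and 1 lower against naive T cells and 7 higher and 1 lower against Th2 cells. The block ended the calls of Utrn against both and of Med13 against Th2 cells. The number stands for the site, lavage or lymph node. Same-numbered libraries did not deviate together in every pair (correlations 0.253 for ILC2 and Th2, -0.034 for ILC2 and naive T, 0.081 for Th2 and naive T), so the fit without the block was kept. The counts were 15 and 1 against naive T cells and 29 and 1 against Th2 cells without centring, and 6 and 0, and 1 and 0 with tags per kb, where Utrn turned to 0.192 against naive T cells and 0.071 against Th2 cells, Trps1 turned to -0.018 against Th2 cells, and no named region was called. Without 1 library they ranged from 0 to 36 higher and 0 to 3 lower against naive T cells, and from 0 to 24 higher and 0 to 7 lower against Th2 cells. The cause of these shifts was not tested. In 131 shared regions the lowest height was under 60 tags, near the tag minimum.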
